A study of Rattus norvegicus with 6 samples.

Results

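Cytochrome P450 monooxygenases and the enzymes that work beside them were compared between kidneys of congenic and Dahl salt-sensitive (S) rats. The group was defined by gene family: P450 genes, their reductase Por, the flavin monooxygenases, the carboxylesterases, the microsomal epoxide hydrolase Ephx1, the UDP-glucuronosyltransferases and the sulfotransferases. P450 genes of arachidonate, vitamin D and cholesterol metabolism (Cyp4a, Cyp4f and Cyp2j genes, Cyp2c23, Cyp24a1, Cyp27b1 and Cyp51) were not part of it. Of 14217 genes with a single symbol on the array, 77 were members, each represented by its probe set of highest mean signal.

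Kidney RNA came from 3 inbred SS/Jr rats, the hypertension-prone S strain, and from 3 rats of the congenic strain S.LEW(D1MCO4x1x3Bx1). By its name that strain has the S background with a chromosome 1 segment of the LEW (Lewis) strain, and the series title ties the work to variants of the protease gene Adamts16 in inherited hypertension. All animals were adult males, 1 Affymetrix array was made per rat, and the sources used here name no treatment, diet or exact age. The labels give the tissue as kidney, with no region named. The 6 arrays had median signals between 162 and 178.

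P450 enzymes are haem proteins of the endoplasmic reticulum or mitochondria that insert oxygen into lipophilic drugs, steroids, sterols and retinoids. Microsomal P450s take their electrons from Por, whereas flavin monooxygenases oxidise nitrogen and sulphur atoms with their own flavin. Glucuronosyltransferases and sulfotransferases then attach glucuronic acid or sulphate, and carboxylesterases and Ephx1 hydrolyse esters and epoxides. In the kidney much of this chemistry takes place in the proximal tubule, which also secretes the conjugates into urine.

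Part of the group had a signal in the upper range of the array. Of the 77 members, 31 had a mean log2 signal above the median of all probe sets and were tested, and 46 lay below it. Every family but one had a tested member; the exception was the CYP3 family, with 0 of 4. The members below the filter had signals between 1.53 and 206, and 30 of these 46 fell under the floor of 12.3 on at least 1 array, where values cannot be ordered. Among them were 15 of 21 CYP2 genes and 6 of 8 UGT2 genes. All 10 hepatocyte markers examined, albumin (Alb) included, were below the filter too, with summed signals of 415 to 788 in S and 579 to 669 in congenic kidneys. The 10 proximal tubule markers all passed it.

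No member passed the adjusted threshold. In limma, 0 of the 31 tested members had an adjusted p below 0.05, and 0 of all 15521 probe sets tested did (0.0%). At unadjusted p below 0.05 there were 8 members, 25.8% of those tested, beside 10.3% of all probe sets tested. Of these 8, 6 had higher congenic signals, beside 4.72% of all probe sets, and 2 had lower ones, beside 5.61%. The higher ones were Fmo2, Ugt2b35, Por, Fmo4, Ces1d and Cyp1a1, and the lower ones were Cyp20a1 and Sult1c2. The count of 8 was 5 without S replicate 3 and 3 without a variance trend in the fit. Without the filter on low signals it was 7 of all 77 members, with some of the 8 replaced by other genes. The split of 6 higher and 2 lower was 3 and 5 without S replicate 1 and 4 and 3 without congenic replicate 1. It was 10 and 0 with each array centred on its median, which added the same amount to the log2 difference of every probe set. In bulk kidney RNA, fewer cells of a type and less RNA per cell cannot be told apart.

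The group as a whole had a median near that of the array. The log2 difference, congenic minus S, was positive in 17 of the 31 tested members (54.8%), beside 48.2% of all probe sets tested. Its median was 0.034 over the members and -0.0087 over all probe sets tested, and the members ranged from -0.36 to 0.44. The 3 congenic values lay outside the range of the 3 S values for 6 members, a share of 19.4% beside 16% of all probe sets tested. They lay above it for 5 members and below it for 1, beside 7.98% and 7.99% of all probe sets tested. With 1 array left out, when fewer values have to be kept apart, this count was 12 without S replicate 1 and 11 without congenic replicate 1.

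**Figure D1:**
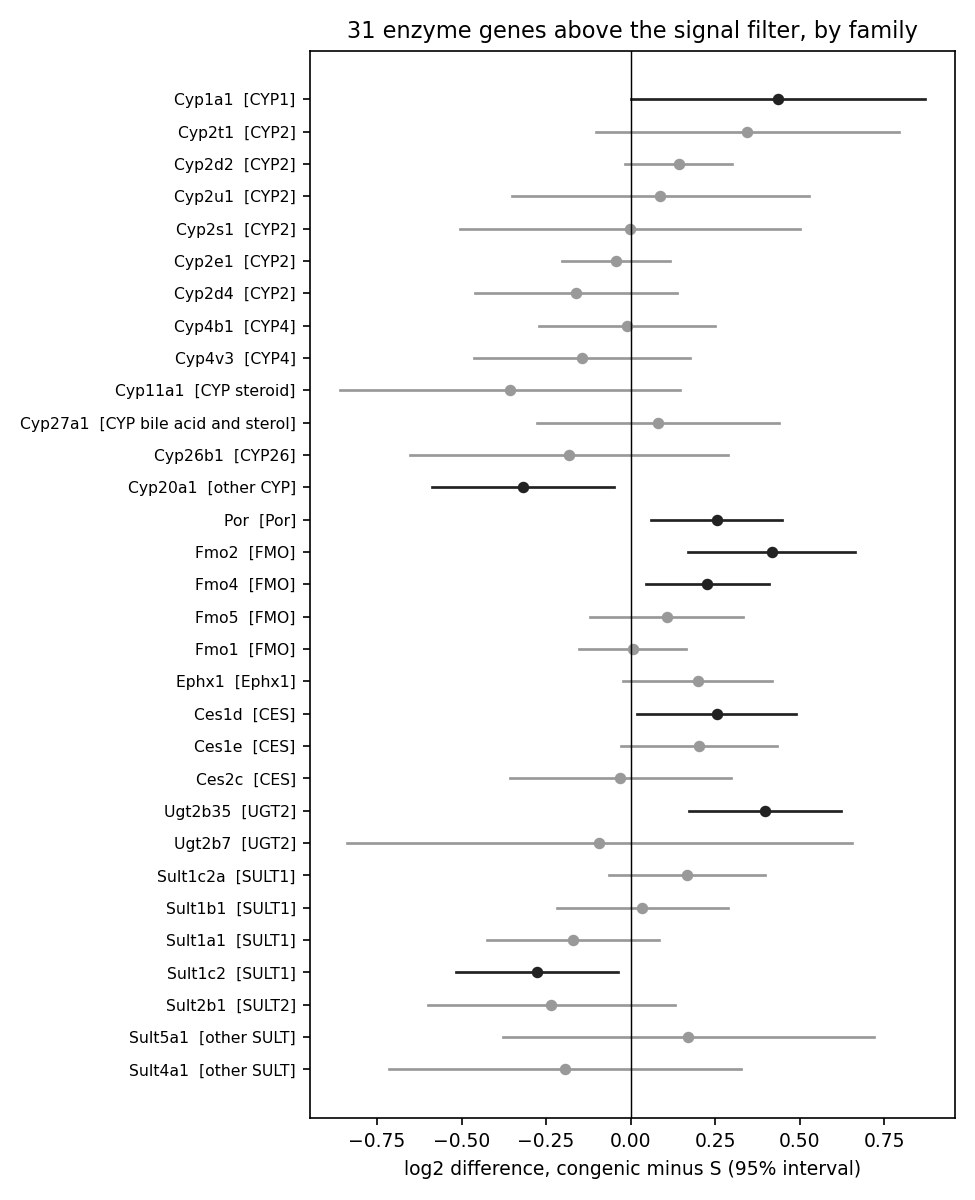
Log2 difference, congenic minus S, for the 31 tested members, grouped by enzyme family. Points are limma estimates and lines are 95% intervals. Black marks the 8 members with unadjusted p below 0.05, whose intervals leave out 0.

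Por, the flavoprotein that hands electrons from NADPH to all microsomal P450s, had no congenic rat within the S range. The S rats read 1881, 1984 and 1920, a mean of 1928 ± 51.6 (SD, n = 3 rats, as for all means here). The congenic rats read 2545, 2170 and 2201, a mean of 2305 ± 208. The strains did not overlap, and congenic replicate 1 was the highest. The congenic mean was higher by 0.25 on the log2 scale (SE 0.09, 95% interval 0.06 to 0.45, unadjusted p = 0.0134, limma adjusted p = 0.348), a fold of 1.19. The exact permutation test gave p = 0.1, the smallest value that 3 against 3 rats allow. A second Por probe set read 1812, 1824 and 2094 in S rats and 2499, 2209 and 2181 in congenic rats, again without overlap, with a log2 difference of 0.27.

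All 4 flavin monooxygenase genes measured had positive log2 differences, beside 48.2% of all probe sets tested. Fmo1 turned negative after quantile normalisation and cyclic loess. Of the 4, 2 reached unadjusted p below 0.05, beside 10.3% of all probe sets tested. Fmo2, which oxygenates amines and sulphur compounds, read 1014, 1053 and 1285 in S rats and 1483, 1341 and 1641 in congenic rats. The lowest congenic rat lay above the highest S rat. Fmo2 differed by 0.42 on the log2 scale (SE 0.12, 95% interval 0.17 to 0.66), which is a fold of 1.33, with unadjusted p = 0.00265 and limma adjusted p = 0.249. Both other Fmo2 probe sets had the same direction and no overlap. One of them read 556, 512 and 584 in S rats and 810, 794 and 807 in congenic rats, a log2 difference of 0.55 with unadjusted p = 3.39e-04 (limma adjusted p = 0.150). The other read 734, 1105 and 1183 in S rats and 1309, 1243 and 1641 in congenic rats, a log2 difference of 0.49.

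Fmo4, a little-studied member of the family, read 3161, 3526 and 3737 in S rats and 4255, 3970 and 3949 in congenic rats. The strains did not overlap, and the difference was 0.23 on the log2 scale (SE 0.08, unadjusted p = 0.0179, limma adjusted p = 0.385). Its second probe set, which read 827, 910 and 949 in S rats and 1292, 1053 and 1191 in congenic rats, had a log2 difference of 0.39 (unadjusted p = 0.00315, limma adjusted p = 0.259). These probe sets were hybridised with the same RNA, so they check the measurement of the gene and add no rats. Fmo1, the classical drug-oxidising form of the family, averaged 8826 ± 364 in S kidneys and 8857 ± 196 in congenic ones. Its log2 difference of 0.0057 had a 95% interval of -0.15 to 0.16. In GRCr8 gene order Fmo4, Fmo1 and Fmo2 are direct neighbours on chromosome 13. Fmo5, on chromosome 2 and named after its values were seen, read 978 ± 87.6 and 1050 ± 28.1, a log2 difference of 0.11 (unadjusted p = 0.331).

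**Figure D2:**
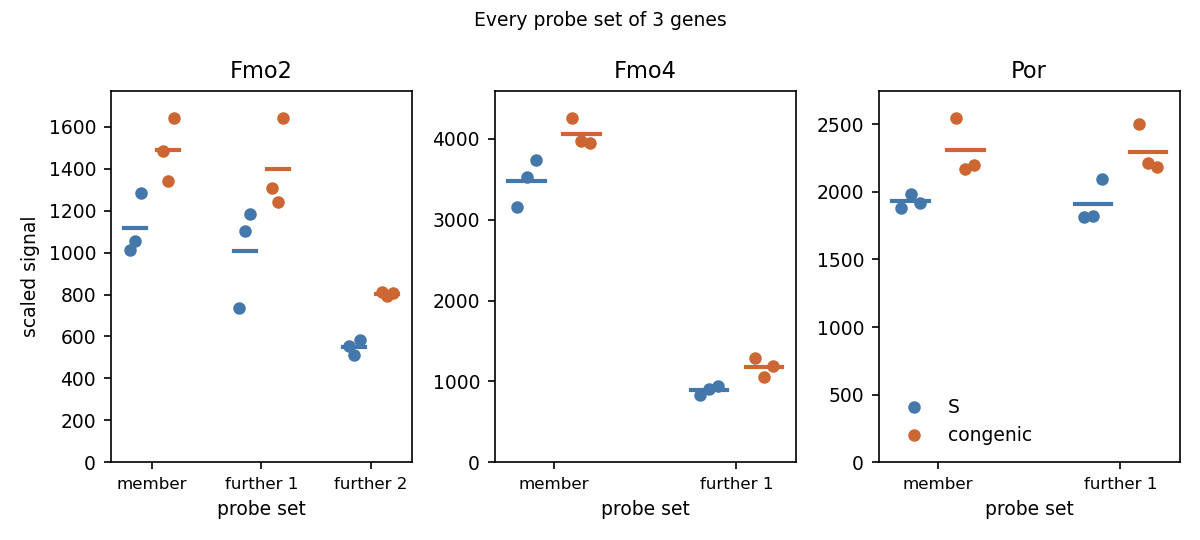
Scaled signal of every probe set of Fmo2, Fmo4 and Por, with 1 point per rat and bars at the strain means. Probe sets are ordered by mean signal, the first being the one used for the gene. In all 7 probe sets the 3 congenic rats lie above the 3 S rats, beside 7.98% of all probe sets tested. The 3 genes were picked with the first probe set of each already without overlap, so the count includes what was picked. Tested further probe sets of Cyp2d4 (log2 difference -0.0089) and Sult2b1 (-0.16), not drawn, overlapped between strains.

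The upstream regions of Por, Fmo2, Ugt2b35, Cyp2d2 and Cyp20a1 are shown from RefSeq on GRCr8, being those tested members without overlap between strains that have a promoter record, with Fmo1, the neighbour of Fmo2, beside them. Cyp20a1 was the one with lower congenic signals. Each run covers the 250 bases before the annotated start, written 5′ to 3′ on the strand of the gene. Capitals mark GCGTG, the core bound by the aryl hydrocarbon receptor, and TGTTCT, part of the element bound by the glucocorticoid receptor, each on either strand, with no overlap between the 2 motifs in these windows.
Por (chr12:26635810-26636059, minus strand): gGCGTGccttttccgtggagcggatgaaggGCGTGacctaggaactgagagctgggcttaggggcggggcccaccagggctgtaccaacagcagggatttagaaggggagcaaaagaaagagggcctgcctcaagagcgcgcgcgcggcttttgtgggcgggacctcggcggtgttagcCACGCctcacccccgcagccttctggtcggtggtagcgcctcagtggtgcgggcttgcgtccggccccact
Fmo2 (chr13:77777535-77777784, minus strand): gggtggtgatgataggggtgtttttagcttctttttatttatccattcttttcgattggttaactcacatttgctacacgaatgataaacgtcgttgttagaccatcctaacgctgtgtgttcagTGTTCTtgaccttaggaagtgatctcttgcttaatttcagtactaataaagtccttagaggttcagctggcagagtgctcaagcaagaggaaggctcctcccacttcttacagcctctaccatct
Fmo1 (chr13:77747667-77747916, minus strand): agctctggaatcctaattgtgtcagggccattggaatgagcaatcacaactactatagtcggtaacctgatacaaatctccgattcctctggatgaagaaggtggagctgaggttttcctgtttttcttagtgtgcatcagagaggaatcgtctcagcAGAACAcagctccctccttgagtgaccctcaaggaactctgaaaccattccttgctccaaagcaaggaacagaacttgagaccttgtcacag
Ugt2b35 (chr14:21208191-21208440, plus strand): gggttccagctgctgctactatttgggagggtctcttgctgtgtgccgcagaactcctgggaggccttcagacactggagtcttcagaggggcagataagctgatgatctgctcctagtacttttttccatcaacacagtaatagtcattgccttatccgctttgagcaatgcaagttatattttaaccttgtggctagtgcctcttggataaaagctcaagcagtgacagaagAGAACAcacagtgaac
Cyp2d2 (chr7:115819282-115819531, minus strand): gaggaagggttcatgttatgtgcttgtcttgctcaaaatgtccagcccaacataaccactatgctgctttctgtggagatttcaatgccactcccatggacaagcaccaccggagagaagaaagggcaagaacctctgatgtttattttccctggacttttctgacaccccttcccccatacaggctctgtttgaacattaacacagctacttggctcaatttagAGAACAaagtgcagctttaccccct
Cyp20a1 (chr9:69249623-69249872, plus strand): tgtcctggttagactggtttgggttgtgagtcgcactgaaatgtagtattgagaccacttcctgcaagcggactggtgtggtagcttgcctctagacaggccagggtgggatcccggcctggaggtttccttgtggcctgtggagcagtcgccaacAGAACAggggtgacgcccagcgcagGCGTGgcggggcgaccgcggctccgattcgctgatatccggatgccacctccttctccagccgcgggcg
The Por window held 3 GCGTG matches and no TGTTCT match, and its GC content was 66.0%. The Fmo2, Fmo1, Ugt2b35 and Cyp2d2 windows held 1 TGTTCT match each and no GCGTG match, and the Cyp20a1 window held 1 match of each. Of the 27 tested members with a promoter record, 8 held GCGTG and 10 held TGTTCT, beside 25.9% and 17.5% of all 33469 windows. TGACNNNGC, the antioxidant response core, was searched too and was in 3 of these 27 and in 10.1% of all windows. Over all 64 members with a record, tested or not, GCGTG was in 12, TGTTCT in 17 and TGACNNNGC in 4. A match is a run of letters and was not tested as a binding site.

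Among the tested drug-oxidising P450s, Cyp1a1 had the largest log2 difference, most of which came from a single rat. Cyp1a1, induced through the aryl hydrocarbon receptor, read 880, 1204 and 848 in S rats and 1994, 1044 and 1069 in congenic rats. Congenic replicate 1 stood above every other rat, and the other 2 congenic rats lay within the S range. The congenic mean was higher by 0.44 on the log2 scale (SE 0.20, unadjusted p = 0.0493, limma adjusted p = 0.482), and the exact permutation test gave p = 0.3. Without congenic replicate 1 the difference was 0.13. The number that opens each array title was also used to split the arrays into 2 blocks. Low numbers (S replicate 1, congenic replicates 1 and 2) were set against high ones (the rest). With this block the Cyp1a1 difference was 0.40 (unadjusted p = 0.0890 in limma). Cyp1b1, of the same family, lay below the filter, at 151 ± 8.78 in S rats and 148 ± 56.0 in congenic rats.

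In the CYP2 family 6 of 21 genes were tested, and none reached unadjusted p below 0.05 in the main fit, although some did under alternatives. Cyp2e1, which oxidises ethanol and small solvents, read 11617, 12007 and 11426 in S rats and 11863, 10773 and 11377 in congenic rats. The strains overlapped, and the log2 difference of -0.044 had a 95% interval of -0.20 to 0.11; it was 0.026 with arrays centred on their medians. Cyp2d2, a relative of the human drug-metabolising CYP2D enzymes, read 6738, 6542 and 6770 in S rats and 7190, 7770 and 7183 in congenic rats. Its strains did not overlap, although its log2 difference was only 0.14 (SE 0.07, unadjusted p = 0.0745, limma adjusted p = 0.527). The unadjusted p of Cyp2d2 in limma was 0.0245 with arrays centred on their medians and 0.0345 without the filter on low signals. Cyp2t1 had 0.34, with congenic replicate 3 at 526 and the 5 other rats between 259 and 340, and 0.10 without that rat. With the title number as a block it was 0.51 (unadjusted p = 0.0144 in limma). The 3 remaining tested genes had log2 differences of -0.16 to 0.09.

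The CYP3 genes, major drug oxidisers of liver and gut, were all below the filter, with signals of 1.59 to 54.0. Cyp3a23-3a1 read 16.6, 11.6 and 5.49 in S rats and 31.4, 37.5 and 54.0 in congenic rats, all of them low on this array and 2 of them under the floor. In the fit of all probe sets it differed by 1.56 on the log2 scale (SE 0.27, unadjusted p = 0.00161), but by 0.19 with the floor at the 20th percentile. The hepatocyte marker Alb, also below the filter, read 31.3, 12.3 and 12.0 in S rats and 82.8, 26.2 and 52.9 in congenic rats. The other hepatocyte markers, all below the filter, went both ways. Log2 differences were positive for Apoa1 (1.03), Fgb (1.43), Fgg (0.24) and Ahsg (0.55). They were negative for Apoh (-0.40), Ttr (-0.50), Serpina1 (-0.41) and Hpx (-0.42), and Tat was under the floor on all 6 arrays. The part of these markers in the Cyp3a23-3a1 difference was not tested. Among the 46 members below the filter, 2 reached unadjusted p below 0.05, beside 5.21% of all probe sets below it. The other was Cyp2b3, a CYP2B gene chosen after its values were seen, which read 42.3, 60.4 and 36.8 in S rats and 11.4, 36.9 and 5.90 in congenic rats. Strains did not overlap for 2 of the 46, Cyp3a23-3a1 and the retinoic acid hydroxylase gene Cyp26a1 (78.7 ± 4.91 in S rats and 56.4 ± 11.8 in congenic rats), beside 9.12% of all probe sets below the filter. Cyp3a9 read 15.2, 5.38 and 36.4 in S rats and 31.8, 27.4 and 11.3 in congenic rats. These counts leave out further probe sets. One of the carboxylesterase gene Ces1c was higher in congenic rats without overlap (log2 difference 1.62, SE 0.33, unadjusted p = 0.00323 in limma). It was under the floor on 3 arrays, those of the S rats. The probe set used for Ces1c had 1.05, with overlap (unadjusted p = 0.177). Further probe sets below the filter of Cyp19a1, Cyp26b1, Cyp4v3 and Ugt2b overlapped between strains.

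Of the CYP4 genes outside the Cyp4a and Cyp4f groups, Cyp4b1, which oxidises fatty acids and protoxins, averaged 833 ± 42.6 in S rats and 830 ± 108 in congenic rats. Its log2 difference of -0.012 was positive under 5 of 17 alternatives. Cyp4v3, a fatty acid hydroxylase gene, read 791 ± 159 and 708 ± 74.5, with overlapping strains.

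Outside the drug-oxidising families, Cyp20a1 had all 3 congenic values below the S range. Cyp20a1 is a P450 of unknown substrate. The S rats read 1563, 1598 and 1572, and the congenic rats read 1514, 1319 and 1013. The S rats lay close together and the congenic rats were spread, with congenic replicate 3 the lowest. On the log2 scale the difference was -0.32 (SE 0.13, unadjusted p = 0.0231, limma adjusted p = 0.404), and -0.16 without congenic replicate 3.

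Cyp11a1, the side-chain cleavage enzyme that starts steroid synthesis, had the lowest log2 difference of the tested members, -0.36 (SE 0.24, unadjusted p = 0.151). It read 217, 244 and 199 in S rats and 142, 155 and 229 in congenic rats, so that 1 congenic rat lay within the S range. The 4 other steroid-making P450 genes were below the filter, among them Cyp21a1, the adrenal steroid hydroxylase (86.6 ± 35.8 and 93.2 ± 41.5). Of 5 adrenal cortex markers on the array, 2 passed the filter, Mrap and Scarb1, whereas Star, Hsd3b1 and Nr5a1 were below it. The summed signal of all 5 markers, Mrap and Scarb1 included, was 607 to 806 in S and 685 to 764 in congenic kidneys.

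Cyp27a1, the mitochondrial sterol hydroxylase of bile acid synthesis, averaged 339 ± 36.5 in S rats and 359 ± 42.2 in congenic rats and was the only tested member of 6 in its class. Cyp8b1, a bile acid hydroxylase gene, read 103 ± 56.0 and 96.0 ± 20.6. Cyp26b1, a retinoic acid hydroxylase gene, read 311, 460 and 668 in S rats and 439, 363 and 410 in congenic rats. All congenic values lay within the S range, and the log2 difference of -0.18 was 0.091 without S replicate 3.

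Ester and epoxide hydrolases had positive differences in 3 of 4 tested genes, 1 of them at unadjusted p below 0.05. Over all probe sets tested, 48.2% were positive and 10.3% reached that p in either direction. Ces1d, a carboxylesterase that splits esters of drugs and lipids, read 1590, 1976 and 1571 in S rats and 2084, 2214 and 1812 in congenic rats. The strains overlapped through S replicate 2. The difference was 0.25 on the log2 scale (SE 0.11, unadjusted p = 0.0359, limma adjusted p = 0.453), and the exact permutation test gave p = 0.2. Ces1e had 0.20 (unadjusted p = 0.0807), with congenic replicate 3 at 1745 and the other 5 rats between 1236 and 1427; without that rat it was 0.096. With the title number as a block Ces1e had 0.28 (unadjusted p = 0.0173 in limma) and Ces1d 0.24 (unadjusted p = 0.0659). Ephx1, which opens epoxides to diols, read 3774, 3780 and 3152 in S rats and 4290, 3532 and 4476 in congenic rats. Its strains overlapped through congenic replicate 2, and it differed by 0.20 on the log2 scale (SE 0.10, unadjusted p = 0.0746, limma adjusted p = 0.527).

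Of the UGT2 genes, which glucuronidate steroids, bile acids and drugs, Ugt2b35 had the smallest unadjusted p of the tested members. It read 1953, 2161 and 2266 in S rats and 2837, 2413 and 3190 in congenic rats. Each congenic rat was above each S rat, with congenic replicate 2 nearest to the S range. Ugt2b35 differed by 0.40 on the log2 scale (SE 0.11, 95% interval 0.17 to 0.62), which is a fold of 1.32, with unadjusted p = 0.00188 and limma adjusted p = 0.229. Ugt2b7, the other tested gene of 8, read 649, 440 and 364 in S rats and 266, 337 and 956 in congenic rats. Congenic rats were both the lowest and the highest, and the 95% interval of the log2 difference ran from -0.84 to 0.65.

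No UGT1 gene was a member, because the 2 UGT1A probe sets are each annotated to 8 UGT1A symbols, which share their last exons. These joint probe sets differed from each other. The first read 7485, 7130 and 7407 in S rats and 8882, 8855 and 8623 in congenic rats, without overlap (log2 difference 0.26, unadjusted p = 0.00267, limma adjusted p = 0.250). The second read 5466 ± 415 and 5418 ± 1043, a log2 difference of -0.028.

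Sulfotransferases, which transfer sulphate to phenols, steroids and amines, went both ways. Sult1c2, a phenol sulfotransferase gene, read 8333, 9215 and 11254 in S rats and 8529, 8431 and 6758 in congenic rats. The strains overlapped, with S replicate 3 the highest and congenic replicate 3 the lowest. On the log2 scale the difference was -0.28 (SE 0.11, unadjusted p = 0.0268, limma adjusted p = 0.420), and the exact permutation test gave p = 0.3. It was -0.16 without S replicate 3 and -0.17 without congenic replicate 3. Its paralog Sult1c2a, on the same chromosome 9, read 28905, 22610 and 29445 in S rats and 26468, 32054 and 32015 in congenic rats, with overlap and a log2 difference of 0.17 (unadjusted p = 0.147). Probe sets of such paralogs may take up each other's transcripts, which was not tested.

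Sult2b1, the cholesterol sulfotransferase gene, averaged 502 ± 42.4 in S rats against 433 ± 102 in congenic rats, a log2 difference of -0.23 (unadjusted p = 0.190). Sult2a2, of the hydroxysteroid group, lay below the filter (31.6 ± 23.2 and 26.5 ± 19.5). Sult4a1 (-0.19) and Sult5a1 (0.17) had overlapping strains, and both changed sign without congenic replicate 3, Sult5a1 also without S replicate 3.

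**Figure D3:**
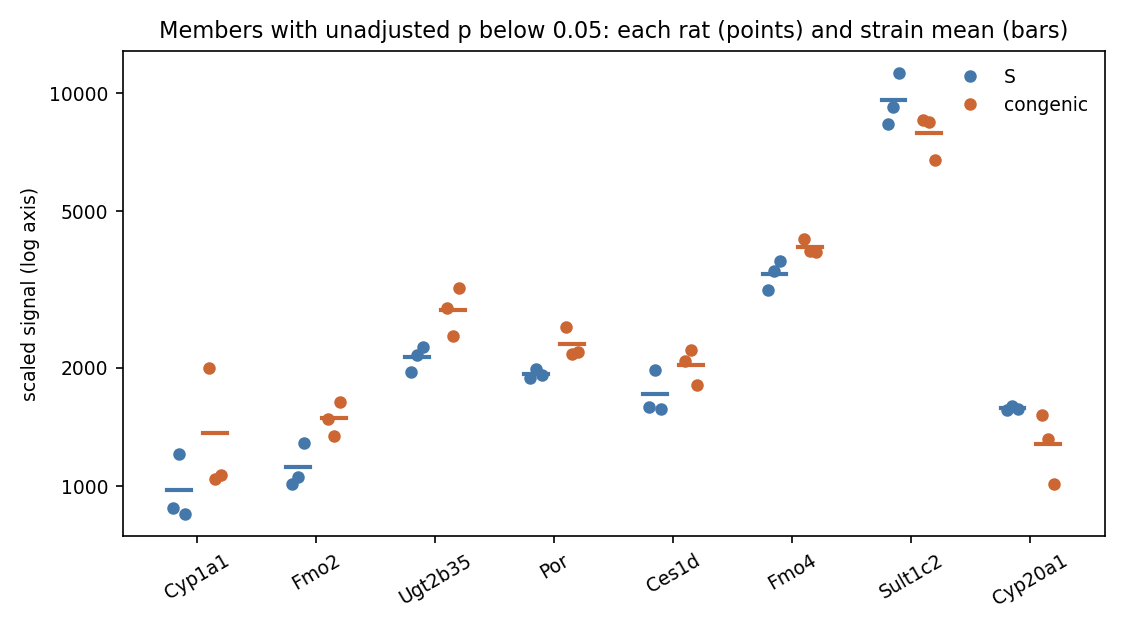
Scaled signal, on a log axis, of the 8 members with unadjusted p below 0.05, with 1 point per rat and bars at the strain means. The strains do not overlap for Fmo2, Ugt2b35, Por, Fmo4 and Cyp20a1, and 1 congenic rat carries the difference of Cyp1a1.

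Between rats, the tested members varied about as much as other probe sets. The median within-strain SD of log2 signal was 0.18 for the 31 members and 0.16 for all probe sets tested, and 0.70 for the 46 members below the filter. The mean log2 deviation of the 31 members from their mean over all arrays was -0.054, -0.0061 and -0.0033 in S replicates 1 to 3 and 0.024, -0.018 and 0.058 in congenic replicates 1 to 3. Congenic replicate 2 thus lay within the S range. Congenic replicate 3 had the highest signal of the 6 rats for 10 of the 31 members and the lowest for 6, and S replicate 1 had the lowest for 8.

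**Figure D4:**
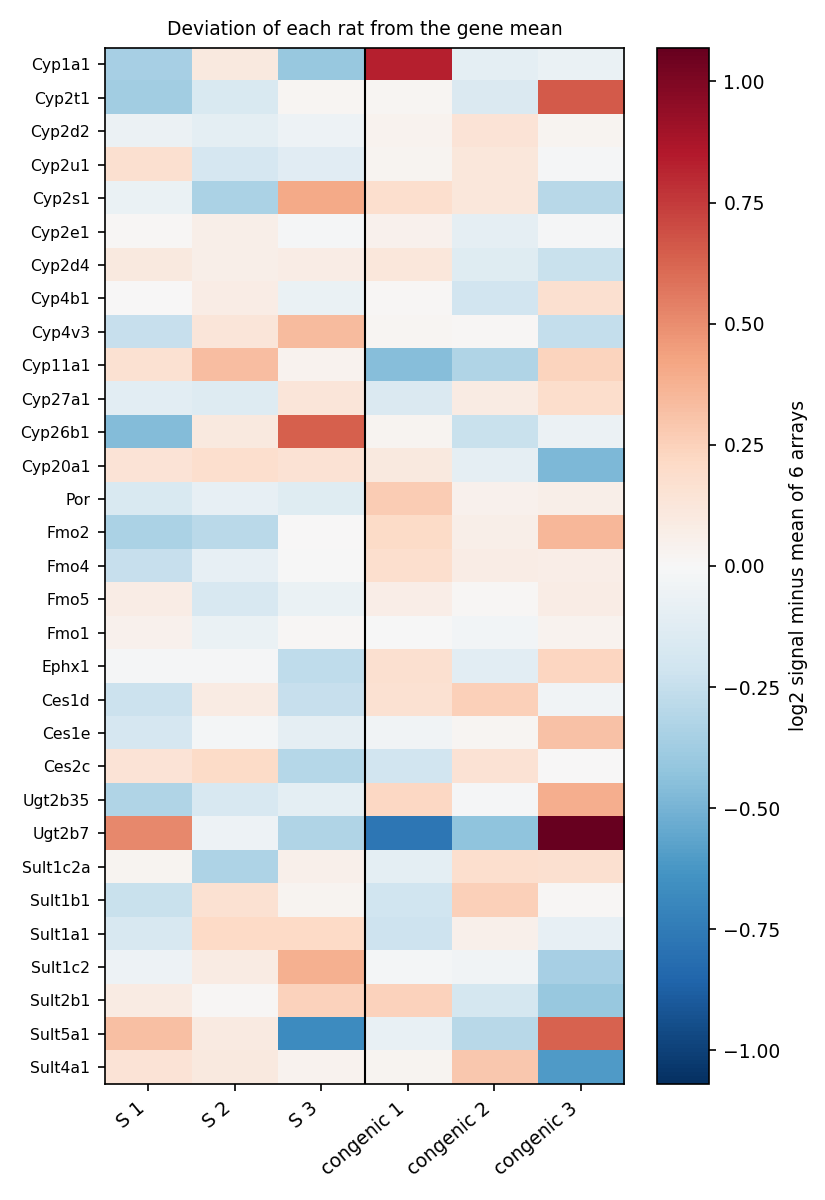
Log2 signal of each tested member in each rat, minus its mean over the 6 arrays (red above, blue below), with S rats left of the line and congenic rats right of it. Fmo2, Fmo4, Por, Cyp2d2 and Fmo5 are above their mean in every congenic rat, although the strains overlap for Fmo5. Ugt2b7, Sult5a1, Cyp1a1 and Cyp26b1 vary most between rats of 1 strain.

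Genes that regulate or supply these enzymes were listed apart from the members. Of 64, 57 were on the array and 50 were tested; at unadjusted p below 0.05, 4 were higher and 1 lower, beside 4.72% and 5.61% of all probe sets tested. None passed the adjusted threshold. Hnf4a, a nuclear receptor that drives many P450 and conjugation genes, averaged 10032 ± 416 in S rats and 11735 ± 434 in congenic rats, a log2 difference of 0.23 (unadjusted p = 0.00854, limma adjusted p = 0.309). Cyb5r3, which reduces cytochrome b5, had 0.22, and Alas1, the first enzyme of haem synthesis, had 0.23, with no overlap in either. Arsb, a lysosomal sulfatase gene, had 0.21 and the medium-chain acyl-CoA synthetase gene Acsm3 had -0.40. The count of 5 was 10 without S replicate 1 and 10 without congenic replicate 1, and 3 without S replicate 2 or without S replicate 3. Of the 9 tested genes of electron and haem supply 8 had positive log2 differences, 2 of them at unadjusted p below 0.05. Of the 12 tested receptors and factors, 2 had positive log2 differences, among them Hnf4a. The 3 other parts of the list had 5 of 6 (cosubstrate supply), 3 of 4 (hydrolases reversing conjugation) and 8 of 19 (other enzymes) positive. Over all 50 tested genes of the list 26 were positive, beside 48.2% of all probe sets tested.

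Markers of kidney cell types were examined beside the enzymes. Of 10 proximal tubule markers, 7 had positive log2 differences, beside 48.2% of all probe sets tested, and 2, Slc13a1 (0.30) and Napsa (0.21), reached unadjusted p below 0.05. Their summed signal was 107489 to 115776 in S and 116983 to 123753 in congenic kidneys, without overlap. Of the 4 markers of the straight part of the proximal tubule, 2 were positive, and their sums overlapped (50998 to 55562 and 53990 to 64096). Of the 3 blood markers, Hbb (-0.42, unadjusted p = 0.0183 in limma) and Alas2 (-0.55, unadjusted p = 0.0184) were lower in congenic kidneys, at unadjusted p only. The summed signal of the 3 was 17153 to 23735 in S and 12036 to 18426 in congenic kidneys, also with overlap. Of the 6 macrophage and leukocyte markers 4 had positive log2 differences, with a median of 0.086, and 1, Cd68, reached unadjusted p below 0.05 (0.63, unadjusted p = 0.0142 in limma). Of the 4 loop and distal tubule markers Umod (0.25) and Slc12a1 (-0.26) reached it, in opposite directions, while no collecting duct, podocyte or adipocyte marker tested reached unadjusted p below 0.05. The part of these markers in the enzyme differences was not tested.

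By position, 25 of the 76 members with a GRCr8 record lie on chromosome 1, the chromosome of the donor segment. Of these, 6 were tested and 0 reached unadjusted p below 0.05, beside 10.3% of all probe sets tested. Below the filter, Cyp2b3 (unadjusted p = 0.0402) and Cyp26a1 (no overlap between strains) also lie on chromosome 1. The member nearest to Adamts16 in gene order was the sulfotransferase gene Sult2a6, with 501 protein-coding genes in between. The sources used here do not give the ends of the donor segment.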

How the data were processed

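Probe set intensities on a linear scale were deposited; per the submitters' processing notes they come from GCOS 1.4, with settings that no source used here states. The 2% trimmed mean of each array was 500.2, so arrays were compared without further scaling. Of 31099 probe sets, 57 controls were left out. Of the rest, 20826 had 1 platform symbol, 436 several and 9780 none; 10 of those with several symbols hold a symbol of these families and were left out. Signals were set to at least the 10th percentile (12.3) before taking log2. The 15521 probe sets above the median mean log2 signal were tested with limma 3.58.1 in R 4.3.3 (eBayes with trend; the prior had 10.7 degrees of freedom), and p-values were adjusted over all of them by Benjamini-Hochberg; members below the filter take their values from the same fit of all 31042 probe sets. Exact permutation tests are 2-sided.

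Members and lists were chosen with earlier results of these data known. Genes named are the 2 of highest mean signal per family, those with unadjusted p below 0.05 or a fold of at least 1.5 without overlap, the 5 highest and 5 lowest differences, genes below the filter with p below 0.01, and listed partner genes with p below 0.05; Fmo5, Cyp2b3 and further probe sets were chosen after their values were seen. Limma p-values do not rest on the spread between 3 rats per strain alone. That spread is combined, for tested probe sets through the prior of 10.7 degrees of freedom, with the spread of other probe sets of similar signal. Genes below the filter have the prior of the fit of all probe sets instead. Exact permutation p-values use the 6 rats of the gene only. The number of arrays limits the precision (median standard error 0.12 for tested members). Alternatives covered the floor, pseudocount, filter, normalisation, variance model, array weights, a block by title number, probe set choice, symbols and each array left out. The block split the arrays by the number that opens each title, whose meaning is not stated, into low and high numbers. S replicate 1 and congenic replicates 1 and 2 had the low ones. Names and gene order come from GRCr8. Figures were drawn with matplotlib 3.10.9.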

Additional observations from a re-analysis of the deposited data

How the results depend on the processing

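No member passed adjusted p 0.05 under any of the 20 alternatives run, although the count over the whole array was 9 with arrays centred on the median and 0 to 41 with 1 array left out. The count of 8 members at unadjusted p below 0.05 was 3 without the variance trend, 5 to 9 with 1 array left out and 6 to 12 otherwise. These counts rest on unlike numbers tested and not always on the same genes. Without the filter on low signals it was 7 of 77 members. Ces1d, Cyp1a1, Sult1c2 and Cyp20a1 were then not among them, while Cyp2d2, Cyp3a23-3a1 and Cyp2b3 were. With a stricter signal filter it was 7 of 20. Fmo2 and Ugt2b35 kept p below 0.05 in all 17 alternatives, Por in 16 and Fmo4 in 14. The count without overlap was 7 to 12 with 1 array left out and 10 with all 37 tested probe sets of the members. The median log2 difference was -0.00101 without the filter on low signals, 0.12 with a stricter signal filter, 0.10 with centring, 0.067 after cyclic loess, 0.069 with the title number as a block, 0.081 over all probe sets of the members and 0.031 to 0.099 with 1 array left out. The 5 partner genes were 3 after quantile normalisation, 10 with centring, 1 without the variance trend and 3 to 10 with 1 array left out. Signs turned for Cyp2e1 (0.026 with centring), Cyp4b1 (0.0076 after quantile normalisation, 0.059 with centring, 0.034 with the title number as a block, -0.10 to 0.087 with 1 array left out), Fmo1 (-0.073 after quantile normalisation, -0.056 after cyclic loess, -0.027 to 0.031 with 1 array left out) and Ugt2b7 (0.069 with the title number as a block, -0.65 to 0.27 with 1 array left out). With 1 array left out, Cyp26b1 ran from -0.46 to 0.091, Sult5a1 from -0.12 to 0.37 and Sult4a1 from -0.38 to 0.063. With the title number as a block, Cyp1a1, Ces1d, Cyp2b3, Alas1 and Arsb no longer had unadjusted p below 0.05, while Cyp2t1 and Ces1e did. The filter alters which probe sets are tested. Centring added the same amount to the log2 difference of every probe set, because array medians were on average lower in congenic rats. Shifts with centring are therefore not particular to the members. Other causes were not tested. No paired analysis was possible because the labels give the strains no shared replicate numbers. No detection calls were used, so a low signal cannot be told apart from background.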
